A study of Drosophila melanogaster x Drosophila sechellia and Drosophila melanogaster and Drosophila sechellia with 12 samples.

Results

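RNA editing in heads of Drosophila sechellia was compared with RNA editing in heads of Drosophila melanogaster at 852 sites. A site entered when it had at least 50 A and G reads of the library's own species in all 4 parent libraries and when fewer than 95% of the pooled reads were G in both species. Of the 1058 sites listed for the series, 891 had that coverage, and 39 of these were left out because a genomic G cannot be told there from an edited A. The 852 sites lay in 256 clusters of neighbouring sites (neighbours within 1000 bases joined), and sites of a cluster can share amplicons and RNA molecules, so they are not independent replicates.

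The libraries came from heads of female adults 0 to 2 days old: D. sechellia (n = 2), D. melanogaster (n = 2), and a mixture of both parent species (n = 2) that served as a control. Hybrid F1 flies (n = 3) and hybrid F1 flies whose D. melanogaster Adar copy is mutant (n = 3) entered only the estimate of the spread between libraries. The labels name no stock of either species and do not say whether replicates came from separate sets of flies, and the p-values therefore reflect library-to-library spread that may be technical. Loci known to be edited were amplified from head cDNA by multiplex PCR and sequenced (mmPCR-seq), and editing levels are given as 100 times G reads over A plus G reads.

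Adar, an enzyme encoded on the X chromosome of Drosophila, converts adenosine to inosine within double-stranded RNA, and sequencing reads inosine as G. Fly editing is richest in the nervous system, where many edited transcripts encode ion channels and proteins of synaptic release. The double-stranded structure that Adar recognises is usually formed by the edited transcript itself, so that neighbouring sites share one structure. D. sechellia is an island species closely related to D. simulans and known for feeding on the fruit of Morinda. Sites are named here by their position in the dm3 build because the tables carry no gene names.

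The whole series held 251870 to 398284 reads per library. The 852 sites had a median of 283 and 246.5 own-species reads in D. sechellia replicates 1 and 2, and of 341 and 316 in D. melanogaster replicates 1 and 2. At the overall median of 293 reads, counting error alone gave a level of 50% a 95% Wilson interval of 44.3 to 55.7%, and a level of 5% one of 3.04 to 8.13%. Reads without molecular identifiers are not independent molecules, so such intervals cover counting error only. The libraries also held reads assigned to the other species' sequence, which made up 3.76% and 1.29% of the reads of D. sechellia replicates 1 and 2, and 2.10% and 2.08% of those of D. melanogaster. In D. sechellia replicate 1 such reads exceeded 10% at 62 of the 852 sites in 16 clusters, against 10 sites in D. sechellia replicate 2 and 3 sites in each D. melanogaster library. The counts over all sites and by chromosome arm are therefore also given below without the 66 sites above 10% in any parent library. Whether the assignment of a read depended on whether it carried A or G at the edited base was not tested, and such a dependence would touch every own-species level given here.

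Editing averaged over the 852 sites, all at loci chosen as known to be edited, was lower in both D. sechellia libraries than in either D. melanogaster library. In which species the sites were first found was not considered. The means, and the counts of higher and lower sites below, therefore describe this list only. Mean levels over the 852 sites were 13.8% and 15.1% in the D. sechellia libraries, against 15.7% in both D. melanogaster libraries, and the medians were 3.62% and 4.19% against 5.43% and 5.52%. The mean was 14.4% ± 0.869 over the D. sechellia libraries, against 15.7% ± 0.0146 over the D. melanogaster libraries (SD, n = 2 each), a difference of -1.24 percentage points. The libraries of the species did not overlap, but the exact two-sided permutation p of 0.333 is the smallest that 2 against 2 libraries can give. The difference was -0.63 points without D. sechellia replicate 1, the lower library, and -1.86 points without D. sechellia replicate 2. Weighted by reads, the levels were 15.2% and 15.6% and the difference was -0.48 points.

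Fewer sites reached 5% in both D. sechellia libraries. Levels of at least 5% were reached by 379 and 395 sites in its libraries, against 436 and 440 in D. melanogaster. No G read was seen at 83 sites in each D. sechellia library, against 22 and 28 in D. melanogaster, a count that depends on depth, which was lower in D. sechellia. At the lowest depth of the 4 libraries at each site (median 233 reads), the expected numbers of sites without G were 96.8 and 92.7 in D. sechellia, against 50.2 and 48.4 in D. melanogaster, so that part of the gap went with depth. At the upper end the libraries overlapped, with 76 and 89 sites at 50% or more in D. sechellia, against 83 and 80 in D. melanogaster.

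A species difference passed the test at 278 of the 852 sites (32.6%), with 105 higher and 173 lower in D. sechellia. The test was a quasi-binomial regression with dispersions shared across sites, called at a Benjamini-Hochberg adjusted p of 0.05. It was adjusted over all 891 covered sites, of which 34.5% passed, 13% higher and 21.4% lower in D. sechellia. Without the 66 sites rich in reads of the other species, 245 of 786 passed, 98 higher and 147 lower. The 278 sites lay in 127 of the 256 clusters. Their median absolute difference was 9.66 points, 135 of them differed by at least 10 points and 48 by at least 20 points. Over all 852 sites the median absolute difference between the species was 2.34 points. Replicates of one species differed there by a median of 1.15 points in D. sechellia and 0.967 points in D. melanogaster. At sites averaging 20 to 50%, the median replicate gaps were 3.69 and 2.47 points and the median absolute species difference was 7.79 points. Among the 574 sites that did not pass, the median absolute difference was 1.18 points and the largest was 13.8 points.

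**Figure D1:**
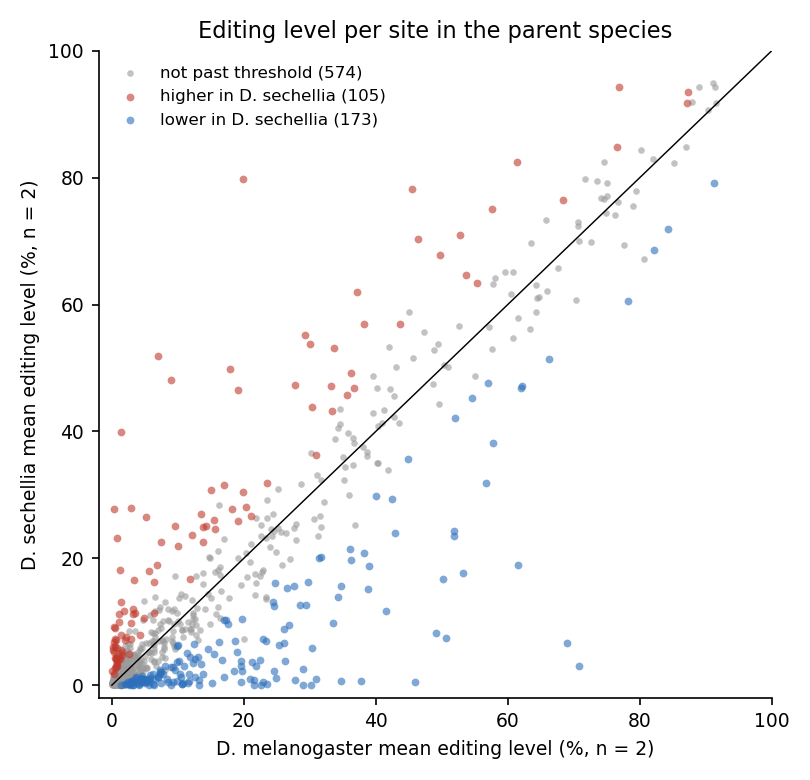
Mean editing level of each of the 852 sites in D. sechellia (vertical axis, %) against D. melanogaster (horizontal axis, %), n = 2 libraries each; the line marks equal levels. Red points (105) were higher and blue points (173) lower in D. sechellia past the threshold, and grey points (574) did not pass; many blue points lie along the bottom edge, near 0% in D. sechellia.

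The excess of lower sites lay at low and middle levels. At the 219 sites whose level averaged 5 to 20% over the species, 29 were higher and 74 lower in D. sechellia, and the median difference was -2.15 points. Between 1 and 5%, 32 of 301 sites were higher and 55 lower, and under 1% a single site of 120 passed. The balance was closer at higher levels, with 30 higher and 35 lower of 135 sites between 20 and 50%, and 10 higher and 7 lower of 62 sites between 50 and 80%. Of the 15 sites at 80% or more, 4 were higher and 1 was lower. No test between these classes was run.

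By chromosome arm, the share that passed was 48.4% of 161 sites on X, against 28.9% of the 691 sites elsewhere, where it ran from 23.1% of 13 sites on chromosome 4 and 26.6% of 192 on 2R to 31.2% of 215 on 3R. On X, 24 sites were higher and 54 lower, and on 3R, 22 were higher and 45 lower, whereas 3L had 18 of each. Many sites rich in reads of the other species lay on X: without them, 43.8% of 128 sites passed on X and 28.7% of 658 elsewhere. The arms were not tested against each other, and sites of a cluster can share reads. The X sites lay in 48 clusters and the others in 208. In the clusters with most calls, 14 of 17, 8 of 13 and 7 of 7 sites passed on X, and 11 of 19, 9 of 11 and 8 of 13 elsewhere. Replicate gaps were of similar size on X and elsewhere, with medians of 1.16 and 1.15 points in D. sechellia and of 0.889 and 0.987 points in D. melanogaster.

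**Figure D2:**
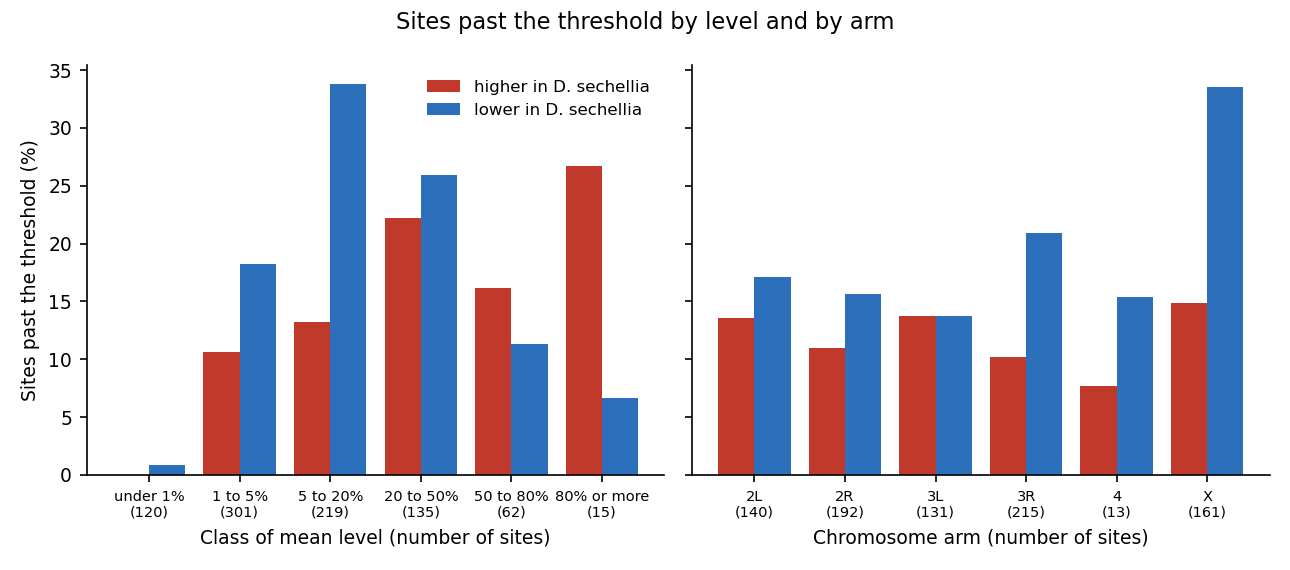
Share of sites that passed the threshold (vertical axis, %), higher (red) or lower (blue) in D. sechellia, by mean level over both species (left panel) and by chromosome arm (right panel), with the number of sites under each class. The tallest blue bars stand at 5 to 20% editing (74 of 219 sites) and on X (54 of 161 sites).

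Several sites were edited in one species and nearly unedited in the other. Of 161 sites under 1% in both D. sechellia libraries, 26 averaged at least 5% in D. melanogaster. Of 89 sites under 1% in both D. melanogaster libraries, 12 averaged at least 5% in D. sechellia. These sites were chosen by their levels in both species, so how many of them passed the test is no finding. At 20% or more in the other species the numbers were 8 sites with almost no editing in D. sechellia and 2 with almost none in D. melanogaster.

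The strongest of the sites nearly unedited in D. sechellia was 3R 1062097, at 0.825% and 0.186% in D. sechellia, against 46.7% and 45.0% in D. melanogaster (adjusted p = 1.76e-12). At 3L 12204771 the levels were 0.480% and 0.675% in D. sechellia, against 35.3% and 34.3% in D. melanogaster. At X 9172609 no G was seen in either D. sechellia library, which allows levels of up to 2.05% and 2.11%, and the D. melanogaster libraries stood at 28.8% and 31.4%. Both D. sechellia libraries were without G at 2L 13187842 as well, which allows up to 1.21% and 1.32%, against 29.2% and 28.8% in D. melanogaster. At 3R 27670470 the D. sechellia levels were 0.325% and 0 (no G among the reads of replicate 2, which allows up to 0.943%), against 24.4% and 22.6%. Each of these 5 sites was thus clearly edited in one species, with both replicates of each species close together.

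The reverse pattern was led by 2L 16877850, at 27.1% and 28.5% in D. sechellia, against 0 and 0.518% in D. melanogaster (adjusted p = 7.34e-07). At 2L 13187691 the levels were 23.8% and 22.5% in D. sechellia, against 0.826% and 0.647% in D. melanogaster. This site lies 151 bases from 2L 13187842, which was edited in D. melanogaster and not detectably in D. sechellia, so that one cluster held a site of each kind. Smaller differences of this type were seen at X 13608078, with 7.73% and 10.5% in D. sechellia, against 0.391% and 0.220% in D. melanogaster. They were also seen at 3R 27667008, with 11.8% and 6.25% in D. sechellia, against 0.680% and 0.389% in D. melanogaster. At X 9171042 the D. sechellia libraries stood at 5.59% and 9.07% and the D. melanogaster libraries at 0.877% and 0.190%.

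The 10 largest differences in each direction, at most 2 per cluster, ran from 25.1 to 59.8 points among sites higher in D. sechellia and from -33.5 to -67.8 points among sites lower in it. The highest rise was at X 1267594, with 78.8% and 80.7% in D. sechellia, against 18.8% and 21.1% in D. melanogaster (difference 59.8 points, SE 2.26, adjusted p = 6.03e-10). At X 3847311 the levels were 50.4% and 53.4% in D. sechellia, against 6.55% and 7.44% in D. melanogaster, and 17 bases away X 3847328 moved with it, at 26.8% and 29.2% against 3.16% and 2.67%. Both sites were thus several times more edited in D. sechellia, by 7.41-fold and 9.6-fold. Neighbouring sites left out as a possible genomic G differed in both directions. At X 3847312, the base next to X 3847311, the levels were 17.6% and 21.8% in D. sechellia, against 99.7% and 100% in D. melanogaster. X 3847285 was also lower in D. sechellia, at 49.6% and 54.4%, against 100% in both D. melanogaster libraries. At X 3847297 the levels were 100% and 99.7% in D. sechellia, against 25.6% and 29.7% in D. melanogaster.

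On 2R, 17508581 stood at 45.0% and 51.1% in D. sechellia, against 9.19% and 8.68% in D. melanogaster. The site 2R 13262389 was at 43.2% and 36.6% in D. sechellia, against 1.32% and 1.51% in D. melanogaster, a 28.3-fold difference in mean level. That fold rests on 3 G reads in each D. melanogaster library. At 2R 7335492 the levels were 76.1% and 80.2% in D. sechellia, against 46.1% and 44.8% in D. melanogaster (adjusted p = 0.000119). The choice of sites required that the libraries of the species not overlap. Of these 3 sites, only the last was strongly edited in both species. At 2R 20798346 the levels were 40.2% and 52.9% in D. sechellia, against 21.1% and 17.1% in D. melanogaster (adjusted p = 0.000176). The 2 D. sechellia libraries disagreed at 3R 26872226, with 40% and 70.4% in D. sechellia, against 30.9% and 27.6% in D. melanogaster (adjusted p = 0.0157). Without D. sechellia replicate 2 its difference was 10.7 points (adjusted p = 0.174), and it also fell short of the threshold without D. melanogaster replicate 1 or 2 (adjusted p = 0.0559 and 0.0896).

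**Figure D3:**
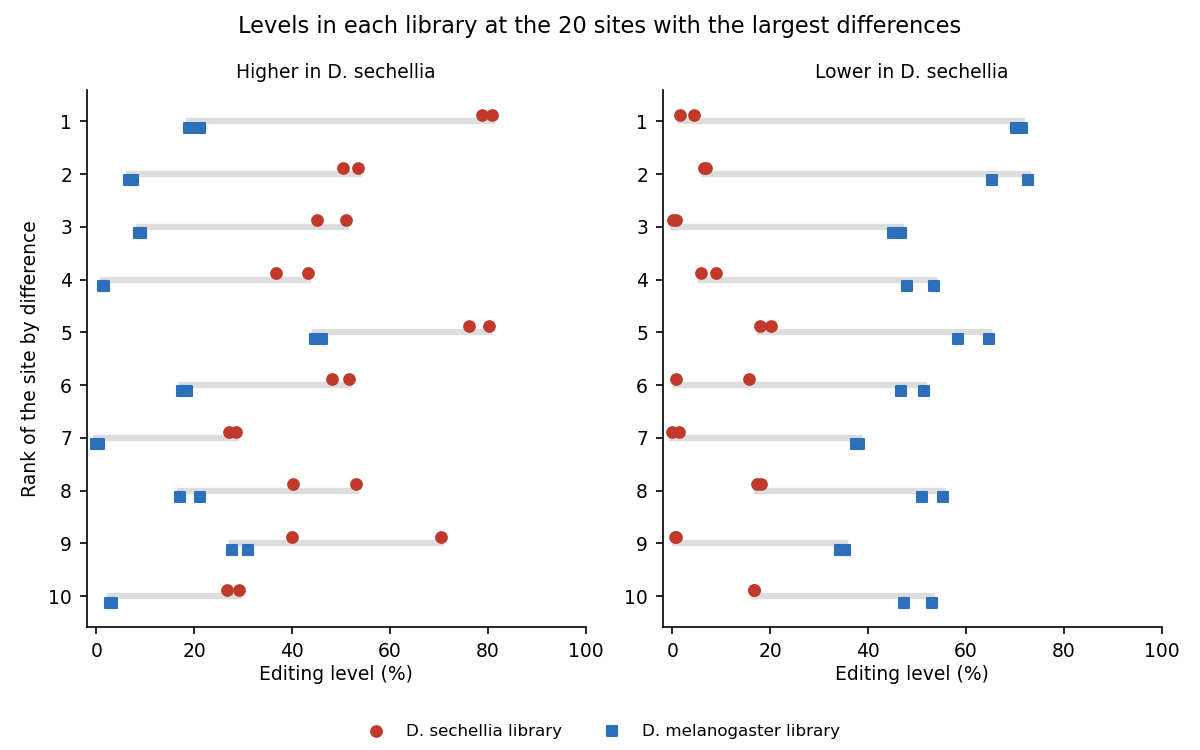
Editing level (horizontal axis, %) in each D. sechellia library (red circles) and each D. melanogaster library (blue squares) at the 10 sites with the largest rise (left) and the 10 with the largest fall (right) in D. sechellia, ranked by difference from the top; grey bars span the 4 libraries. The libraries of the species do not overlap at any of the 20 sites, which the choice of sites required, and the D. sechellia replicates lie furthest apart at the 9th site on the left, at 40% and 70.4%.

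Among the falls, 3R 16846284 was edited at 1.60% and 4.44% in D. sechellia, against 70.3% and 71.4% in D. melanogaster (difference -67.8 points, SE 2.83, adjusted p = 8.52e-10). At 3L 21327037 the levels were 6.92% and 6.45% in D. sechellia, against 72.6% and 65.4% in D. melanogaster. The mean level was 23.5-fold lower in D. sechellia at the first and 10.3-fold lower at the second. The first fold rests on 3 and 10 G reads in the D. sechellia libraries, and it was 15.9-fold without D. sechellia replicate 1 and 44.4-fold without D. sechellia replicate 2. Partial reductions were seen at 2L 3762337 (20.05% and 17.95% in D. sechellia, against 64.6% and 58.5% in D. melanogaster) and at 3R 191196 (18.1% and 17.4%, against 50.95% and 55.4%).

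A pair of neighbours on X, 5 bases apart, stood at 0.725% and 15.7% (X 1272312) and at 5.84% and 8.92% (X 1272317) in D. sechellia, against 51.4% and 46.7% and against 53.4% and 48.0% in D. melanogaster. At both, 45.9% and 46.7% of the reads of D. sechellia replicate 1 were assigned to the D. melanogaster sequence, whose part in the result was not tested. With reads of both sequences counted, D. sechellia replicate 1 stood at 18.04% at X 1272312 and at 21.8% at X 1272317, and the species differences were -32.2 and -35.3 points, against -40.9 and -43.3 points from own-species reads.

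Adjacent bases among the 852 sites that both passed mostly moved in the same direction, but sites a few bases apart also moved in opposite ones. Of 59 clusters with at least 2 sites past the threshold, 14 had only higher sites, 24 only lower sites and 21 both. Among pairs of consecutive sites that both passed, 26 of 27 pairs of adjacent bases had the same direction, as did 26 of 37 pairs 2 to 10 bases apart, 16 of 24 pairs 11 to 50 bases apart and 12 of 15 pairs further apart within a cluster. These counts are a description, since neighbours share reads. The agreement to be had from 105 higher and 173 lower calls alone was not worked out. In 112 clusters with at least 3 sites, 34 had no site past the threshold and 3 had every site past it.

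The cluster with most sites past the threshold and the widest range of differences lay on X between 1267357 and 1267739, a stretch of 383 bases with 17 sites. Of these, 14 passed, 3 higher and 11 lower in D. sechellia. The site X 1267594 rose by 59.8 points, while X 1267589, only 5 bases away, was at 1.86% and 0.286% in D. sechellia, against 4% and 3.30% in D. melanogaster. The call at X 1267589 (adjusted p = 0.0364) was lost without D. sechellia replicate 2 (-1.79 points, adjusted p = 0.307) and without D. melanogaster replicate 1 or 2 (adjusted p = 0.144 and 0.0799). The largest fall of the cluster was at X 1267379, with 4.55% and 8.73% in D. sechellia, against 26.3% and 25.7% in D. melanogaster, followed by X 1267561 with 22.3% and 17.0% against 36.5% and 36.0%. The longest run of consecutive sites called lower held 6 sites, from X 1267621 to X 1267737. They stood between 0.735% and 11.5% in D. sechellia and between 4.59% and 19.7% in D. melanogaster. The run was chosen by these calls, so that all 6 passed is no finding.

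Averaged over the 17 sites, the levels of the X cluster were 8.93% and 9.23% in D. sechellia, against 10.3% and 10.4% in D. melanogaster, a cluster mean difference far smaller than those of its leading sites. In D. sechellia replicate 1 a median of 33.8% and up to 63.7% of the reads at these sites were assigned to the D. melanogaster sequence, but at X 1267594, X 1267587 and X 1267589 none was, and at X 1267561 the share was 0.365%. With reads of both sequences counted, X 1267621 no longer passed (-2.50 points, adjusted p = 0.0627).

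The clusters with most members lay on 2R and held 19 sites each. In that between 2R 13262372 and 2R 13262562, 11 sites passed, 2 higher and 9 lower in D. sechellia. Its site 2R 13262389, described above, rose by 38.5 points between neighbours that fell: 2R 13262386 was at 3.83% and 2.78% in D. sechellia, against 15.6% and 11.6% in D. melanogaster, and 2R 13262393 at 0 and 0.549%, against 10.1% and 11.4%. These 3 sites span 8 bases. The site 2R 13262374 was at 16.7% in both D. sechellia libraries, against 53.1% and 47.3% in D. melanogaster, where it was the most edited site of the cluster.

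In the other cluster, between 2R 20802211 and 2R 20802397, most sites did not pass. The mean level was 28.8% and 29.9% in D. sechellia, against 27.0% and 27.2% in D. melanogaster, and 4 of 19 sites passed, all higher by 4.86 to 8.22 points. Each of the 4 missed the threshold when some single library was left out. The site 2R 20802317 was at 76.8% and 77.0% in D. sechellia, against 73.3% and 74.9% in D. melanogaster, and 2R 20802225 at 76.1% and 77.0%, against 72.6% and 76.5%, neither of which passed (adjusted p = 0.367 and 0.705). The strongest site, 2R 20802381, was at 93.1% and 94.1% in D. sechellia, against 87.2% and 87.3% in D. melanogaster (adjusted p = 0.0125).

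Another cluster, on 3R between 1061931 and 1062100 and chosen after its values were seen, had 9 of 11 sites past the threshold within 170 bases. Its 2 rises were 3R 1062051, at 51.5% and 48.1% in D. sechellia, against 18.5% and 17.4% in D. melanogaster, and 3R 1062054, at 95.7% and 92.8%, against 76.4% and 77.2%. The base next to the first, 3R 1062050, was lower, at 0.824% and 1.10% in D. sechellia, against 4.34% and 4.33% in D. melanogaster. Among the 852 sites, these were the only adjacent bases with opposite calls. Sites left out at the 95% limit were not counted in this. At higher coordinates, 3R 1062097 and 3R 1062100 were almost unedited in D. sechellia, the second at 1.17% and 0.377%, against 26.8% and 28.8% in D. melanogaster. No read of the D. sechellia libraries at these sites was assigned to the D. melanogaster sequence in replicate 1.

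**Figure D4:**
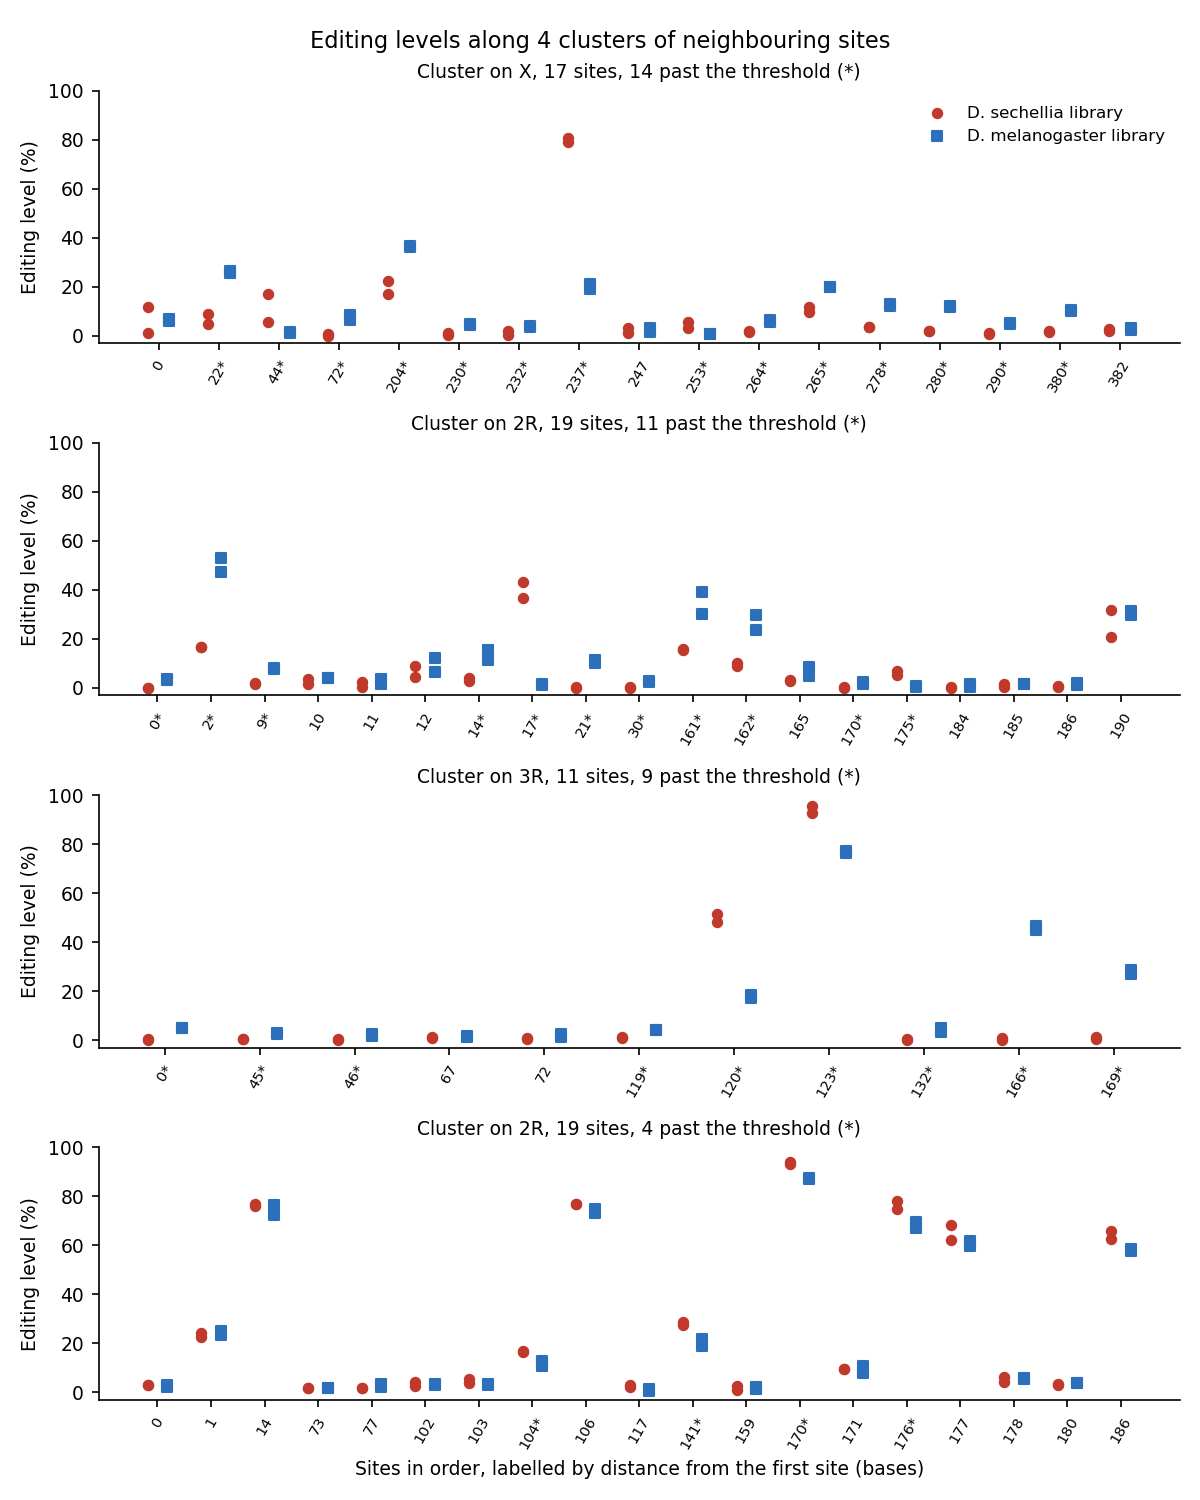
Editing level (vertical axis, %) in each D. sechellia library (red circles) and D. melanogaster library (blue squares) at every site of 4 clusters, in order along the chromosome and labelled by distance from the first site in bases; an asterisk marks sites past the threshold. In the upper 3 clusters tall red sites stand between sites where blue is higher, and in the lowest, with 4 of 19 sites past the threshold, red and blue run together.

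In some short clusters most sites differed in 1 direction; the 3 described here were chosen after their values were seen. On X, 7 sites between 11598209 and 11598226 all passed within 18 bases, of which 6 were lower in D. sechellia, led by X 11598221 at 0 and 1.42% in D. sechellia, against 38.1% and 37.4% in D. melanogaster. The seventh, X 11598226, was higher, at 4.93% and 7.12% in D. sechellia, against 0.202% and 0 in D. melanogaster. On 3R, 5 of 7 sites between 9491018 and 9491034 were lower, such as 3R 9491023 at 2.11% and 2.27%, against 20.6% and 16.6%, and none was higher. In the opposite direction, 5 of 7 sites between 3R 3829141 and 3R 3829209 were higher, such as 3R 3829180 at 27.1% and 26.9% in D. sechellia, against 12.5% and 14.4% in D. melanogaster, and the cluster averaged 14.3% and 16.1% in D. sechellia, against 5.42% and 5.84%.

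Heavily edited sites that did not pass were also described, by taking the 10 with the highest mean level. At 2L 9717614 the levels were 91.2% and 90.02% in D. sechellia, against 90.4% and 90.4% in D. melanogaster, and the 95% interval of the difference was -2.26 to 2.83 points. At 3R 23499011 they were 86.2% and 79.6% in D. sechellia, against 83.1% and 80.8% in D. melanogaster (interval -3.86 to 5.99 points). The interval was wider at X 14166129 (-15.9 to 9.65 points), where the D. sechellia libraries stood at 75.6% and 88.9%, against 86.0% and 84.5% in D. melanogaster. The adjusted p-values of the 10 sites ran from 0.0660 (3L 2941364) to 0.916 (2R 7335112). For 3L 2941364 and 2L 16174153 the unadjusted intervals of the difference, 0.768 to 9.56 and 0.363 to 5.47 points, lay above 0.

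Replicates disagreed most in D. sechellia. The widest gap between its libraries was at 3R 5492569, with 48.2% and 86.1% in D. sechellia, against 78.7% and 82.5% in D. melanogaster, and it was followed by 2L 17371342, with 43.9% and 77.7%, against 69.2% and 71.6%. Neither passed (adjusted p = 0.335 and 0.343), but both did with D. sechellia replicate 1 alone (adjusted p = 0.0383 and 0.0125). The widest gap between D. melanogaster libraries was 12.6 points, against 37.9 points in D. sechellia. Replicate 1 of D. sechellia was the lower of its pair at 501 sites and the higher at 313, while the D. melanogaster pair was split evenly, 420 and 425.

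The limit of 95% G was set to leave out sites that may be a genomic G. Just inside it lay 3L 2941426, with pooled levels of 94.8% in D. sechellia and 91.2% in D. melanogaster, 3R 1062054 (94.4% and 76.8%) and 2L 16174153 (94.3% and 91.4%). Just outside lay 2L 8201379, with 4.30% in D. sechellia against 95.3% in D. melanogaster, 2R 6708460 (0.180% and 95.3%) and 2L 9733349 (88.6% and 95.9%).

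The mixed parents gave the same comparison in other libraries, since reads of each species could be read within one library. Of the 852 sites, 552 had at least 50 reads of each species in both mixed libraries, and 183 of these had passed between the separate parents. The mixed difference had the same sign at 176 of the 183. Their median absolute difference was 7.13 points in the mixed libraries and 9.59 points in the separate ones. Since the 183 sites were chosen by their differences in the separate libraries, these medians do not measure a change between the settings. By size, the sign was the same at 41 of 43 sites that differed by under 5 points and at 27 of 28 that differed by at least 20 points. Between alleles of the mixed libraries 54 of the 552 sites passed, 19 higher and 35 lower on the D. sechellia sequence. Over all 575 sites tested there, 11.8% passed, 4.17% higher and 7.65% lower. Of the 54, 53 had passed between the separate parents in the same direction. The count of 54 varied from 9 with limma to 123 with Fisher's exact test on pooled reads.

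**Figure D5:**
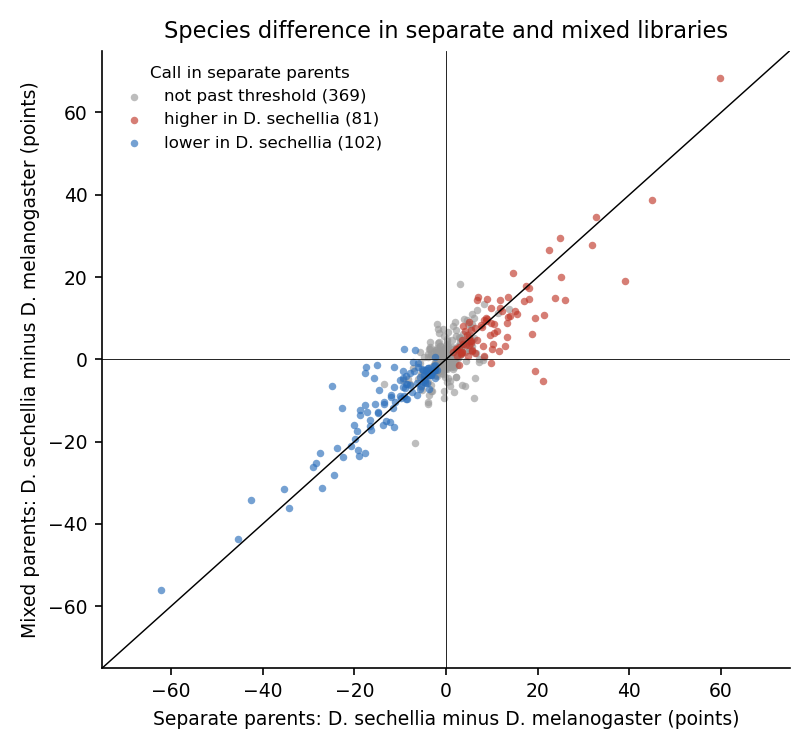
Difference in editing level, D. sechellia minus D. melanogaster in percentage points, in the mixed parents (vertical axis) against the separate parents (horizontal axis) at the 552 sites covered in both, each a mean of n = 2 libraries; the diagonal marks equal differences. Of the coloured sites, which passed between the separate parents (81 higher, red; 102 lower, blue), 176 lie on the same side of 0 in both.

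Several of the named sites, chosen by their differences in the separate libraries, could be read in the mixture. At X 1267594 the mixed libraries gave 81.0% ± 4.602 for D. sechellia reads and 12.6% ± 4.33 for D. melanogaster reads (SD, n = 2). Differences of the same sign were measured at X 3847311 (43.1% ± 1.52 and 4.45% ± 2.03) and, in the other direction, at 3L 21327037 (7.69% ± 0.773 and 63.7% ± 3.43) and 3R 1062097 (0.170% ± 0.241 and 43.8% ± 2.60). The gap was narrower at 2R 17508581, with 33.9% ± 5.67 for D. sechellia reads and 14.8% ± 1.52 for D. melanogaster reads, and did not pass there (adjusted p = 0.0637). A change of the species difference between mixed and separate parents was called at 0 of the 552 sites by the quasi-binomial interaction test and at 0 by limma, with 35 at an unadjusted p under 0.05. Over all 575 sites tested, 0.522% passed.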

How the data were processed

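For each library the authors deposited counts of A reads and of G reads at every site, split by the species sequence to which the read was assigned, per the file headers. The deposited percent of each species equals the share of G to within 0.05 and is 0 without reads, so levels were taken from the counts. BWA and the dm3 build are named per the submitters' processing notes; how reads were assigned to species is not given in the sources used here. One of the D. sechellia tables lacks 1 site, taken as having no reads.

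In the parent libraries only own-species reads were counted. A quasi-binomial logistic regression was fitted per site in R 4.3.3. Dispersions came from all 5 groups (total reads in mixed parents, F1 and Adar F1), were squeezed on a trend with coverage by limma 3.58.1 and floored at 1. Deviance F tests were adjusted by Benjamini-Hochberg. Mixed-parent alleles kept the library as a block; in the interaction test allele counts of one library were treated as independent. No minimum level was set. Mean levels per library were compared by an exact permutation test. The tests were tried on simulated counts.

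Coverage varied between replicates beyond sampling noise in both species (chi-square per degree of freedom 2.91 in D. sechellia and 3.19 in D. melanogaster). Sites were named by rule: the 10 largest rises and falls past the threshold without overlap, at most 2 per cluster, whole clusters with most members, most calls or widest range, the strongest sites under 1% in a species, and the most edited sites that did not pass. Sites, rules and lists were chosen with earlier results of these data known. No gene lists were used, since the tables give no genes, and no sequence is printed, since no genome was used here. Alternatives covered coverage and level minimums, other tests, thinning, the replicate block, the limit on G and each replicate left out. The replicate numbers were not treated as pairs: the deviations of same-numbered libraries from their species means correlated with r = -0.0144 over the 852 sites.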

Additional observations from a re-analysis of the deposited data

Results flagged for a closer look

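Reads outside the main measurement were found in all 4 parent libraries, above what a count of 0 allows (at most 0.00111%). Reads assigned to the other species' sequence made up 3.76% of D. sechellia replicate 1, 1.29% of D. sechellia replicate 2, 2.10% of D. melanogaster replicate 1 and 2.08% of D. melanogaster replicate 2. In 78 combinations of a site and a library such reads exceeded 10%. Their level lay over 20 points from the mean of the species they were assigned to in 9, and it was 90% or more in 3. At many of the 78 that mean was near 0, where a level cannot lie 20 points below it. The 9 of 78 is therefore not a rate of mismatch. At 2L 8201337, 73 reads of D. sechellia replicate 1 were assigned to D. melanogaster and were 95.9% G, where D. melanogaster libraries averaged 20.3% and the library's own-species reads 10.1%. With both sets of reads counted that library stood at 42.7%, and D. sechellia replicate 2 at 31.6% on its own reads. At 2L 8201387, 24 such reads were 95.8% G, against a D. melanogaster mean of 38.8%. At 2R 13262562 the D. melanogaster reads were 1.39% G in D. sechellia replicate 1 and 94.7% in replicate 2, beside own-species levels of 31.8% and 20.7%; with both sets counted the libraries stood at 26.8% and 28.9%. These sites were chosen after their values were seen. Whether reads were assigned by the edited base itself was not tested.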

How the results depend on the processing

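The direction of a call could change only where the levels themselves changed: after thinning, with a library left out, or with reads of both sequences counted. The other alternatives used the same levels. In those that could change it, all 278 calls between the species kept their direction. The count was 250 with only the 4 parent libraries in the fit, 299 with limma, 352 with Fisher's exact test on pooled reads, 265 after thinning to equal coverage and 211 with a difference of at least 5 points. With reads of both sequences counted, 273 of the 278 passed again. With the replicate block 272 sites were called, although the numbers were not found to pair the libraries. Leaving out 1 library gave 210 to 232 calls, with 70 to 93 higher and 132 to 154 lower, and 209 to 220 of the 278 passed again. Of 93 named sites, 10 lost their call without D. sechellia replicate 2 and 5 without D. sechellia replicate 1, among them 2L 8201387 (-11.8 points, adjusted p = 0.137). The count between mixed-parent alleles depended on the test: it was 54 as reported, 9 with limma, 123 with Fisher's exact test, 94 without the library block, 98 with a mean level of at least 1%, and 10 to 16 with 1 mixed library left out. The change of the species difference was called at 1 site with a mean level of at least 1%, against 0. The causes were not tested. The alternatives of a 1% level for the mixed parents, and those on reads of the other species and on sites without G at matched depth, were added after the data were seen. Among the 120 sites with a mean level under 1%, 1 passed, at a median absolute difference of 0.460 points and a median depth of 248.5 reads.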
